A study of Mus musculus with 12 samples.

Results

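Genomic imprinting leaves a gene active mainly on the copy inherited from one parent, and many imprinted genes set how fast fetal tissues grow. The levels of 10 such genes were followed in mouse lung adenocarcinoma: the ligand Igf2 and its clearance receptor Igf2r, the long noncoding RNAs H19 and Meg3, the membrane protein Dlk1, the zinc finger protein Peg3, the hydrolase-like protein Mest, the cell cycle inhibitor Cdkn1c, the adaptor Grb10 and neuronatin, Nnat. Nnat was chosen by its log2 intensity in these 12 arrays, and the others were selected on their place among imprinted growth genes. All were taken from the array table as the probe sets whose gene symbol was one of these 10 and no other. By that rule 9 of the 10 genes were measured, by 28 of the 34945 probe sets that carry 1 symbol, and each gene was represented by its brightest probe set among 18193 genes. The H19 probe set also carries another symbol, so H19 was not analysed here. The members were chosen with earlier results of these arrays known, and the low level of Nnat in 344SQ was one of those results.

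Total RNA of 12 samples was hybridised to 1-colour Affymetrix arrays, 4 for each of 3 lines. 344SQ, labelled highly metastatic, was grown from a subcutaneous site of mouse #344. 393LN, labelled intermediately metastatic, came from a mediastinal lymph node of mouse #393, and 393P, labelled non-metastatic, from the primary lung tumour of that same mouse. All 3 lines carry p53R172H∆g/+ and K-rasLA1/+, a latent oncogenic K-ras allele, so every array shares both alleles. Each line is a mass population and not a clone, and 344SQ comes from another mouse than the 393 lines, so line, mouse and metastatic class cannot be told apart. The profiled material is described as dissected syngeneic tumours, so host cells add RNA to that of the tumour cells, and fewer cells of a type and less RNA per cell cannot be told apart. The labels do not say that the 4 arrays of a line come from separate animals, so p-values measure the spread between these samples, which may be technical. Age and sex of the hosts are not given in the sources used here.

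Levels are log2(intensity + 16), on which the lowest value deposited lies at 4.09 and the median gene at 8.46. Epithelial markers were high in every array: Krt8, Krt18 and Cdh1 lay between 13.18 and 14.38, whereas Epcam lay between 8.30 and 10.27 in 344SQ, against 13.10 to 13.43 in 393LN and 13.22 to 13.56 in 393P. The arrays that stood apart did so by other measures. The mean of 4 fat markers was 9.02 on 344SQ replicate 3, the mean of 8 skeletal muscle markers was 9.57 on 393LN replicate 1, and the 3′ to 5′ actin signal ratio was 1.47 on 393P replicate 1, against 1.04 to 1.19 on the other arrays. Replicate numbers only name the arrays.

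In the mouse, Nnat, Igf2, Dlk1, Peg3 and Mest are expressed from the paternal copy, and Igf2r, H19, Meg3, Cdkn1c and, in most tissues, Grb10 from the maternal one. The paternal genes tend to favour growth and the maternal ones to restrain it, and methylation of CpG sites laid down in the germ line keeps the copies apart. Neuronatin is a small proteolipid of the endoplasmic reticulum, known best from brain, pancreatic islets and fat, and its gene lies within an intron of Blcap. An array signal sums both parental copies, so none of the values below says which copy was active.

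Promoter windows show how much CpG sequence lies upstream of the genes the results turn on. The 4 windows are the 250 bases before the annotated start in RefSeq's GRCm38.p6, 5′ to 3′ on the gene's own strand, with CG dinucleotides in capitals. Nnat (chr2:157559828-157560077, plus strand) and Blcap (chr2:157566362-157566611, minus strand) are the nested pair, and Phlda2 (chr7:143502525-143502774, minus strand) and Plagl1 (chr10:13090582-13090831, plus strand) are imprinted genes outside the 10 that fell in 344SQ against 393P.
Nnat: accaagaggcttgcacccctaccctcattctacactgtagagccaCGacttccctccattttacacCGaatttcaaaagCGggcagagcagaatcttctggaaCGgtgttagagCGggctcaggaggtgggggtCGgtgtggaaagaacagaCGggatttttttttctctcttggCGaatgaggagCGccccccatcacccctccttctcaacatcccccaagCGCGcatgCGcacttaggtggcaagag
Blcap: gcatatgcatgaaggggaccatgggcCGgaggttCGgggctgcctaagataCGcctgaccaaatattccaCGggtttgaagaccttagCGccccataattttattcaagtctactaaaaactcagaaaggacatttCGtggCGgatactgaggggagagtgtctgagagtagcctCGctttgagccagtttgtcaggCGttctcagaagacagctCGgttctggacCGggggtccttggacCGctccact
Phlda2: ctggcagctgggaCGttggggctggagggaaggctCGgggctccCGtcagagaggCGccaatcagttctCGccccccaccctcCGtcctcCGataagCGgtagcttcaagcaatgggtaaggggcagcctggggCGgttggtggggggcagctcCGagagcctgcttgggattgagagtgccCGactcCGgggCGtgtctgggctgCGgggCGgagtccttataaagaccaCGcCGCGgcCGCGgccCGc
Plagl1: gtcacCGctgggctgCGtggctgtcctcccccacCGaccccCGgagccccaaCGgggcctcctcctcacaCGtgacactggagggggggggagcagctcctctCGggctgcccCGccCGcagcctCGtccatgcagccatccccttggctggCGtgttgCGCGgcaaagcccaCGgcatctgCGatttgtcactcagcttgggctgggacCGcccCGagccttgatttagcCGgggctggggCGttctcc
The Nnat window holds 12 CpG sites and the Blcap window 12 as well, more than 66.5% of the 32851 windows in the table, whose median is 6. The Phlda2 window holds 21 and the Plagl1 window 19, more than 83.7% and 80.3% of windows. The palindrome GGGGCCCC, which reads the same on both strands and is a known target of the zinc finger protein Plagl1, occurs in 0.889% of windows. It is in none of the 4 printed, and in 1 of the 15 windows of the 8 members that have any, that of Peg3. A match is only a description of the letters in these windows.

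Nnat (probe set 1423506_a_at) was low in 344SQ and high in 393P, with 393LN spread between them. Its level was 5.33, 5.71, 7.26 and 5.23 in 344SQ, 6.80, 6.82, 10.38 and 11.36 in 393LN, and 11.17, 11.52, 11.82 and 10.45 in 393P. Every 344SQ array lay below every 393P array. The 393LN arrays covered nearly the whole range: replicates 1 and 2 lay below 344SQ replicate 3, and replicate 4 lay among the 393P arrays. The means were 5.88 ± 0.94 in 344SQ, 8.84 ± 2.38 in 393LN and 11.24 ± 0.59 in 393P (SD, n = 4 each). Nnat was thus 41.0-fold lower in 344SQ than in 393P, a log2 difference of -5.36, which chose the gene and is given without a test. The differences were -2.96 for 344SQ minus 393LN and -2.40 for 393LN minus 393P, both smaller than the range of the 393LN arrays, and likewise given without a test.

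The spread of Nnat within lines was wide among genes on this array. Its pooled SD was 1.51, larger than that of 99.8% of the genes tested, whose median was 0.235. Within 344SQ, the highest Nnat array was replicate 3, the array highest in fat markers, where Adipoq, the fat hormone adiponectin, read 10.88, against 6.13 to 7.59 on the other 344SQ arrays. Adipoq was 9.0, 6.57, 9.02 and 9.13 on the 393LN arrays, nearly level on replicates 1, 3 and 4, whereas Nnat was low on replicates 1 and 2. It was 9.63, 8.81, 6.70 and 6.85 on the 393P arrays, whose Nnat levels were all high. The mean of the 4 fat markers was 8.09, 6.80, 8.05 and 7.83 on the 393LN arrays, highest on replicate 1, where Nnat was lowest in that line. On the 393P arrays that mean was 8.06, 7.92, 6.74 and 7.06. Leptin, a further fat gene, read 4.09 to 4.20 on all 12 arrays, at or near the floor. The mean of 7 neural and neuroendocrine markers was 7.48 to 7.49 in 344SQ, 7.10 to 7.43 in 393LN and 7.04 to 7.61 in 393P. Within that list Ncam1, a neural cell adhesion molecule, read 10.77 to 11.55 in 344SQ, 8.40 to 10.05 in 393LN and 8.11 to 9.93 in 393P, highest in the line with the lowest Nnat. Syp, Uchl1 and Tubb3 read between 7.70 and 8.92 on all arrays, and Snap25, a synaptic gene, at most 5.27. Without the 3 arrays that stood apart, the Nnat difference was -5.84 for 344SQ minus 393P, -4.10 for 344SQ minus 393LN and -1.74 for 393LN minus 393P. Leaving out 1 array at a time gave -3.64 (without 393LN replicate 1) to -2.12 (without 393LN replicate 4) for 344SQ minus 393LN, and -3.24 (without 393LN replicate 4) to -1.72 (without 393LN replicate 1) for 393LN minus 393P. The part of fat tissue in the Nnat values was not tested.

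**Figure D1:**
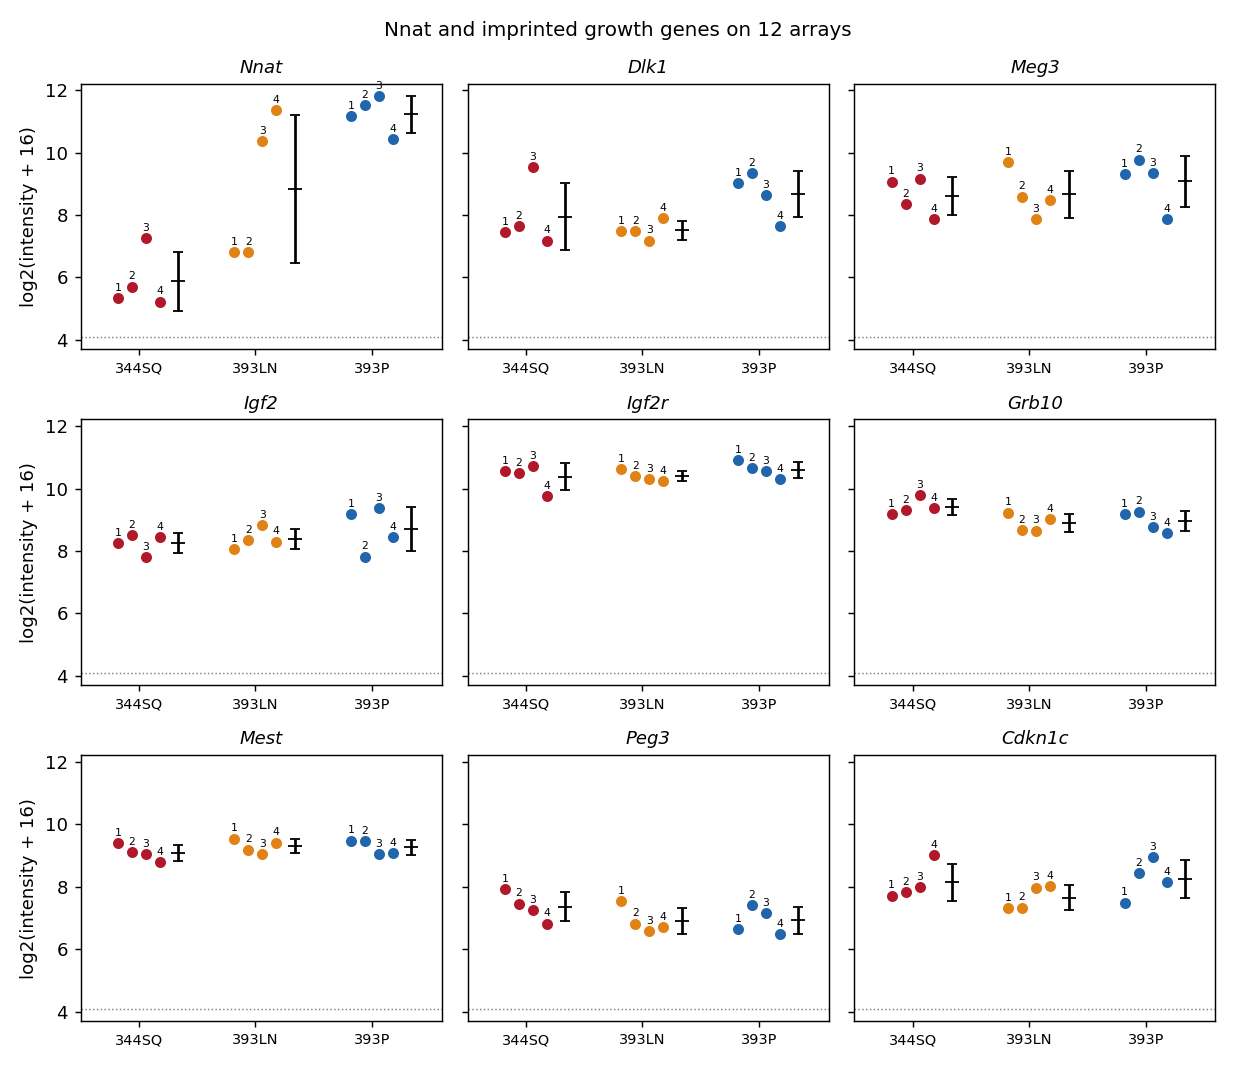
Level of each of the 9 measured genes, log2(intensity + 16), on the 4 arrays of 344SQ, 393LN and 393P. Points are arrays, numbered by replicate, the bar beside them is the mean ± SD of the line, and the dotted line is the floor of 4.09. Nnat runs between 5.23 and 7.26 in 344SQ, from 6.80 to 11.36 in 393LN and between 10.45 and 11.82 in 393P, whereas the other 8 genes overlap between lines.

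Blcap, the gene around Nnat, did not share this pattern. It read 11.18, 11.41, 11.53 and 11.50 in 344SQ, 11.32, 11.04, 11.07 and 11.06 in 393LN, and 10.87, 11.31, 11.29 and 10.99 in 393P. The 344SQ arrays overlapped both other lines, and limma's test gave 0.29 for 344SQ minus 393P (adjusted p = 0.199) and 0.28 for 344SQ minus 393LN (adjusted p = 0.195).

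The genes whose profile lay nearest to that of Nnat were Vil1, Amot, Klk8, Pglyrp1 and Cers3. Nearness was the root mean square difference of centred levels over the 12 arrays, which was 1.17 for Vil1, 1.32 for Amot, 1.5 for Klk8, 1.5 for Pglyrp1 and 1.52 for Cers3, so even the nearest gene differed from Nnat by over 1 log2 unit on a typical array. Vil1, the actin-bundling protein villin of epithelial brush borders, read 7.33, 8.61, 8.75 and 7.44 in 344SQ, 8.33, 9.20, 12.13 and 11.56 in 393LN, and 10.44, 11.46, 11.08 and 11.43 in 393P. As with Nnat, 393LN replicates 3 and 4 were the high ones in that line, but Vil1 was picked by its likeness to Nnat on these same arrays. Amot was also highest on replicates 3 and 4 of 393LN. Klk8 instead read 9.35 and 9.75 on replicates 1 and 2 against 8.96 on both others, and Pglyrp1 and Cers3 were highest on replicates 2 and 3. Amot, the angiomotin of cell junctions, read 4.81 to 5.42 in 344SQ, 5.67 to 7.14 in 393LN and 8.63 to 10.39 in 393P. No other member varied enough over the arrays, with an SD of at least 1, for such a list.

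**Figure D2:**
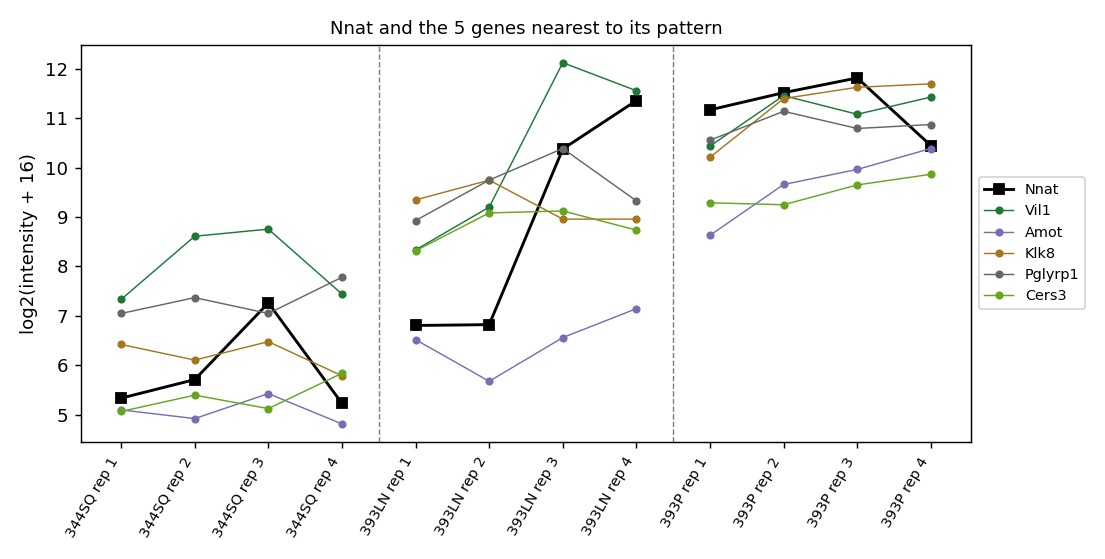
Level, log2(intensity + 16), of Nnat (black squares) and of the 5 genes nearest to its pattern (circles) on each array of 344SQ, 393LN and 393P. Segments join the points of one gene within a line of cells, and replicates have no order. Nnat and Vil1, which was picked by its likeness to Nnat on these arrays, are both higher on 393LN replicates 3 and 4 than on replicates 1 and 2. Klk8, Pglyrp1 and Cers3 do not share this.

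Of the 8 measured members other than Nnat, none passed limma's test in any of the 3 comparisons (adjusted p under 0.05 over all 18193 genes). Among all genes 10.5% passed in 344SQ against 393P, 10.9% in 344SQ against 393LN and 2.45% in 393LN against 393P. At an unadjusted p under 0.05 there was 1 of the 8 in each comparison, beside 23.6%, 25.7% and 15.7% of all genes, and for none of the 8 did the arrays of the compared lines separate without overlap, against 16.7%, 17.4% and 10.3% of all genes. The members' median absolute log2 difference was 0.445 for 344SQ minus 393P, 0.326 for 344SQ minus 393LN and 0.265 for 393LN minus 393P, beside 0.182, 0.199 and 0.158 over all genes. Leaving out 344SQ replicate 3 let Dlk1 pass in 344SQ against 393P, and averaging all probe sets of a gene let Igf2r pass there.

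**Figure D3:**
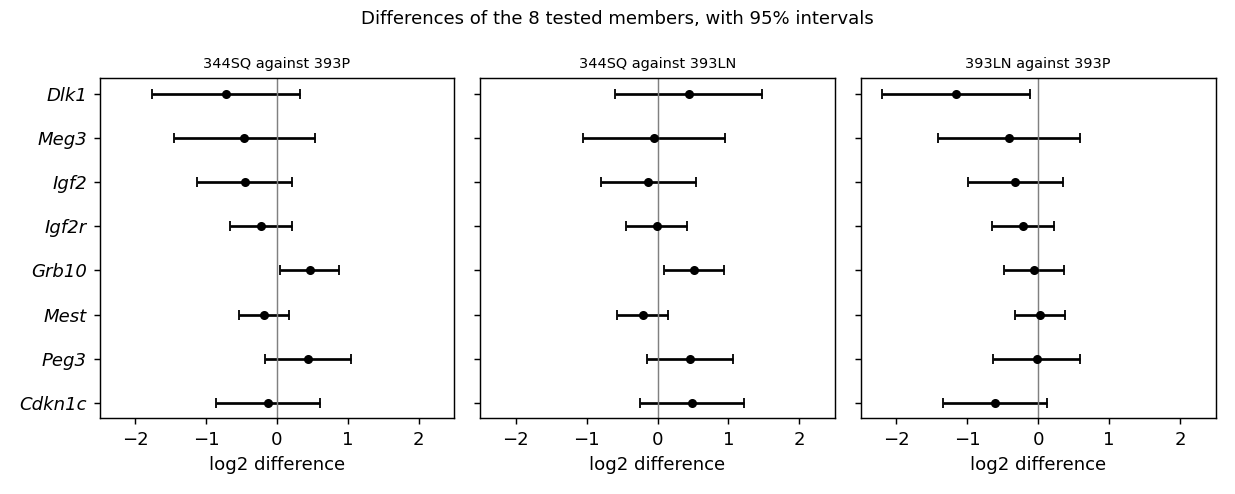
Log2 difference of the 8 members other than Nnat, with 95% confidence intervals from limma, with a panel for each comparison of lines. Points right of 0 are higher in the line named first. The intervals of Dlk1 and Meg3 are the widest, and none of the differences passed the adjusted test.

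The IGF pair did not differ between lines by the adjusted test. Igf2 (1448152_at), the fetal growth factor, read 8.24, 8.51, 7.81 and 8.44 in 344SQ, 8.06, 8.34, 8.83 and 8.30 in 393LN, and 9.19, 7.82, 9.37 and 8.44 in 393P, so the 393P arrays held both the highest values and one of the lowest. For 344SQ minus 393P its difference was -0.45 ± 0.31 (SE; 95% interval -1.12 to 0.22; adjusted p = 0.434). Igf2r (1424111_at), which takes Igf2 to the lysosome, read 10.56, 10.50, 10.72 and 9.77 in 344SQ, 10.63, 10.40, 10.31 and 10.25 in 393LN, and 10.92, 10.65, 10.56 and 10.30 in 393P. Its differences were -0.22 (adjusted p = 0.576), -0.01 (adjusted p = 0.980) and -0.21 (adjusted p = 0.691) for 344SQ minus 393P, 344SQ minus 393LN and 393LN minus 393P.

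The second Igf2r probe set gave another picture. It read 9.35, 8.77, 9.22 and 9.60 in 344SQ, 10.48, 10.21, 9.83 and 9.72 in 393LN, and 9.66, 10.31, 10.19 and 10.00 in 393P, and all 344SQ arrays lay below all arrays of the other lines. By limma over the 34945 probe sets its log2 difference was -0.81 (adjusted p = 0.0412) for 344SQ minus 393P, -0.82 (adjusted p = 0.0385) for 344SQ minus 393LN and 0.02 (adjusted p = 0.987) for 393LN minus 393P. Among all probe sets 7.62%, 7.42% and 1.81% passed in the 3 comparisons. Of the 19 further probe sets of the members it was the only one that passed in any, so the result for Igf2r depends on the probe set. When the probe sets of each gene were averaged, Igf2r gave -0.51 for 344SQ minus 393P (adjusted p = 0.0373).

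Dlk1 and Meg3 are neighbours on chromosome 12, with 2 annotated genes between them, and both varied widely within lines. Dlk1 (1449939_s_at), a Notch-ligand-like membrane protein that restrains fat cell differentiation, read 7.45, 7.65, 9.53 and 7.18 in 344SQ, 7.48, 7.48, 7.18 and 7.91 in 393LN, and 9.03, 9.36, 8.65 and 7.64 in 393P. The highest array of all was 344SQ replicate 3, the fat-marker-rich one, and without it 344SQ lay below 393P except at 393P replicate 4. With all arrays the difference for 344SQ minus 393P was -0.72 ± 0.48 (SE; 95% interval -1.76 to 0.32; adjusted p = 0.421), and without 344SQ replicate 3 it was -1.24 (adjusted p = 0.0492). For 393LN minus 393P it was -1.16 (95% interval -2.20 to -0.12, unadjusted p = 0.0317, adjusted p = 0.255). The other Dlk1 probe set, dimmer at 6.09 to 6.99, gave 0.29 for 344SQ minus 393P by limma over all probe sets (adjusted p = 0.359). It gave 0.41 for 344SQ minus 393LN (adjusted p = 0.161) and -0.12 for 393LN minus 393P (adjusted p = 0.812). The direction for 344SQ minus 393P thus depends on the probe set.

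Meg3 (1452905_at), the maternal noncoding RNA of the same domain, read 9.07, 8.35, 9.17 and 7.87 in 344SQ, 9.71, 8.59, 7.88 and 8.49 in 393LN, and 9.32, 9.78, 9.35 and 7.87 in 393P. Each line held arrays near 7.9 and arrays above 9, so no order of the lines can be read from it. Its differences were -0.46 ± 0.46 (SE; adjusted p = 0.624), -0.05 (adjusted p = 0.964) and -0.41 (adjusted p = 0.747) for 344SQ minus 393P, 344SQ minus 393LN and 393LN minus 393P. Its 10 further probe sets had means of 6.10 to 8.30, and none passed the test.

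Peg3 (1433924_at), a zinc finger protein tied to maternal care and fat metabolism in mice, read 7.93, 7.46, 7.26 and 6.82 in 344SQ, 7.53, 6.82, 6.58 and 6.70 in 393LN, and 6.65, 7.42, 7.16 and 6.48 in 393P. Its difference was 0.44 ± 0.28 (SE; 95% interval -0.17 to 1.04; adjusted p = 0.399) for 344SQ minus 393P and 0.46 (adjusted p = 0.337) for 344SQ minus 393LN. Its 4 further probe sets were dim, with means of 4.42 to 5.62.

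Dlk1, Meg3 and Peg3, grouped here after their values were seen, shared their lowest arrays by the brightest probe set of each. In each of the 3 genes the lowest array was replicate 4 in 344SQ, replicate 3 in 393LN and replicate 4 in 393P. Those arrays also had the lowest median log2 intensity of their line, at 7.19, 7.20 and 7.21, against 7.23 to 7.29 on the others. No normalization was added. The mean of 10 fibroblast markers was lowest on those same arrays, at 11.91 in 344SQ, 11.38 in 393LN and 11.29 in 393P. On the other arrays it was 12.02 to 12.18 in 344SQ, 11.54 to 11.92 in 393LN and 11.68 to 11.86 in 393P. Within that list the markers split on 344SQ replicate 4. Col1a1, Col1a2, Col3a1, Pdgfrb, Postn and Thy1 were lowest of their line there, whereas Dcn, Lum and Pdgfra were not. Fap was highest there, at 10.38. Mest also had its lowest array at replicate 4 of 344SQ and replicate 3 of 393LN, but at replicate 3 of 393P. Other host-cell lists were low on some of these arrays too. The mean of 6 endothelial markers was lowest on 344SQ replicate 4 and 393LN replicate 3, and the mean of 8 macrophage markers on those same arrays. In 393P the endothelial mean was 9.23 on both replicates 1 and 4, and the macrophage mean was lowest on replicate 3. The parts of host cell content and of array-wide signal in these values were not tested.

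**Figure D4:**
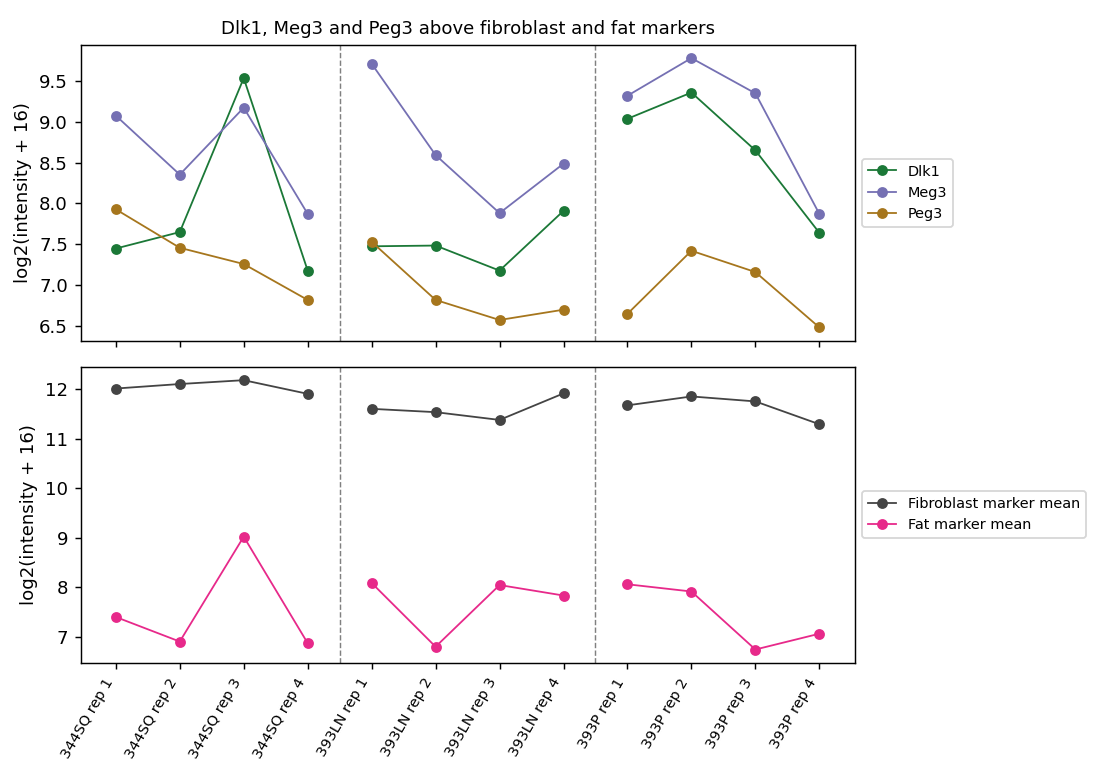
Levels of Dlk1, Meg3 and Peg3 (top) and means of the fibroblast and fat marker lists (bottom), log2(intensity + 16), on the 4 arrays of 344SQ, 393LN and 393P; segments join points within a line of cells and imply no order. All 3 genes, each by its brightest probe set, and the fibroblast mean are lowest on replicate 4 of 344SQ, replicate 3 of 393LN and replicate 4 of 393P. These arrays also have the lowest overall median of their line. The fat mean peaks at 9.02 on 344SQ replicate 3, where Dlk1 also peaks.

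Grb10 (1425458_a_at), an adaptor that dampens insulin and IGF receptor signalling, read 9.17, 9.30, 9.79 and 9.37 in 344SQ, 9.23, 8.67, 8.65 and 9.02 in 393LN, and 9.17, 9.26, 8.77 and 8.58 in 393P. The 344SQ arrays lay at the upper end of the range but touched both other lines. The difference was 0.46 ± 0.19 (SE; 95% interval 0.04 to 0.88; unadjusted p = 0.0343, adjusted p = 0.167) for 344SQ minus 393P and 0.51 (95% interval 0.10 to 0.93; unadjusted p = 0.0201, adjusted p = 0.113) for 344SQ minus 393LN. These are the smallest adjusted p-values among the 8 members in those comparisons, and neither passed. The 2 further Grb10 probe sets were dim, with means of 6.14 and 6.43, and did not pass. In those comparisons 1 gave -0.42 (adjusted p = 0.423 by limma) and -0.36 (adjusted p = 0.466). The other gave 0.06 (adjusted p = 0.846) and 0.38 (adjusted p = 0.0654), so the direction depends on the probe set.

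Cdkn1c (1417649_at), the cell cycle inhibitor p57, read 7.71, 7.83, 7.99 and 9.01 in 344SQ, 7.30, 7.33, 7.97 and 8.01 in 393LN, and 7.49, 8.45, 8.96 and 8.14 in 393P. Its within-line SD of 0.54 exceeded that of 95.2% of genes, and its differences were -0.12 (95% interval -0.86 to 0.61; adjusted p = 0.882) for 344SQ minus 393P and 0.48 (adjusted p = 0.412) for 344SQ minus 393LN. Mest (1423294_at) was the steadiest member, at 9.39, 9.11, 9.04 and 8.79 in 344SQ, 9.54, 9.19, 9.04 and 9.41 in 393LN, and 9.48, 9.47, 9.05 and 9.07 in 393P. Its difference for 344SQ minus 393P was -0.18 ± 0.16 (SE; 95% interval -0.54 to 0.17; adjusted p = 0.568).

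Within-line spread exceeded 98.5% of genes for Dlk1, 98.3% for Meg3, 95.2% for Cdkn1c, 93.2% for Igf2 and 90.5% for Peg3. It exceeded 70.1% for Igf2r, 67.1% for Grb10 and 50.6% for Mest. The order of the line means was 393P, 393LN, 344SQ from high to low for Nnat, Igf2, Igf2r and Meg3, 393P, 344SQ, 393LN for Dlk1 and Cdkn1c, 344SQ, 393P, 393LN for Peg3 and Grb10, and 393LN, 393P, 344SQ for Mest. Apart from Nnat, which was not tested, no neighbours in these orders differed by the adjusted test.

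Among measured imprinted genes that lie close to a member, Phlda2, Copg2 and Ddc passed the test, and the others did not. Over all genes 10.5% passed in 344SQ against 393P and 10.9% in 344SQ against 393LN. These calls are therefore not read as a result about imprinted neighbours as a set. Phlda2, a placental growth restraint separated from Cdkn1c by 2 annotated genes, read 7.10, 7.97, 8.05 and 9.10 in 344SQ, 10.51, 10.82, 10.39 and 9.44 in 393LN, and 10.13, 10.20, 10.65 and 9.68 in 393P. All 344SQ arrays lay below all others, with a log2 difference of -2.11 ± 0.39 for 344SQ minus 393P (SE; adjusted p = 0.00487) and -2.23 for 344SQ minus 393LN (adjusted p = 0.00397). For 393LN minus 393P it was 0.12 (adjusted p = 0.928). Both falls passed on leaving out each array in turn. Cdkn1c, its neighbour in the same maternal domain, gave -0.12 and 0.48 in the 344SQ comparisons, and neither passed. Nor did the domain's Kcnq1ot1, at -0.33 (adjusted p = 0.371), Slc22a18, at 0.22 (adjusted p = 0.632), Kcnq1, at -0.39 (adjusted p = 0.623), or Nap1l4, at -0.21 (adjusted p = 0.369), for 344SQ minus 393P. By their brightest probe sets these genes did not pass for 344SQ minus 393LN either. A dim Kcnq1ot1 probe set, at 4.25 to 5.81, did pass there, at 0.81 (adjusted p = 0.0235 by limma over all probe sets). Copg2, a coatomer subunit gene that overlaps Mest, gave -0.72 ± 0.13 for 344SQ minus 393LN (SE; adjusted p = 0.0050) and -0.56 for 344SQ minus 393P (adjusted p = 0.0181). Mest itself gave -0.21 and -0.18 there, and neither passed.

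The wider list of imprinted genes held 48 measured of 57. In 344SQ against 393P, 2 rose and 4 fell, beside 4.86% and 5.62% of all genes. In 344SQ against 393LN, 0 rose and 3 fell, beside 3.99% and 6.92%, and in 393LN against 393P, 0 rose and 1 fell, beside 1.75% and 0.698%. The list's median difference was -0.04, 0.01 and -0.03 in those comparisons, beside -0.0007, -0.0175 and 0.0095 over all genes.

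Plagl1, an imprinted zinc finger protein that regulates other imprinted genes in the mouse, passed in all 3 comparisons. It read 7.81, 8.39, 8.18 and 7.56 in 344SQ, 8.77, 8.35, 8.89 and 9.15 in 393LN, and 10.07, 10.07, 9.84 and 9.60 in 393P. The difference was -1.91 ± 0.21 for 344SQ minus 393P (SE; adjusted p = 0.000116), -0.81 for 344SQ minus 393LN (adjusted p = 0.0271) and -1.10 for 393LN minus 393P (adjusted p = 0.0193). The call against 393LN was lost without 344SQ replicate 1 or 4 or 393LN replicate 1, 3 or 4 (adjusted p up to 0.0738), and the call of 393LN against 393P without 393LN replicate 3 or 393P replicate 2 or 3 (adjusted p up to 0.0625). The other 2 Plagl1 probe sets gave 0.16 (adjusted p = 0.674) and -0.14 (adjusted p = 0.780) for 344SQ minus 393P, so the fall rests on 1 probe set, of the x_at type whose probes can also match other transcripts.

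Sfmbt2, a Polycomb-related protein needed in the placenta, read 7.53, 6.74, 6.31 and 8.21 in 344SQ, 7.02, 8.51, 8.43 and 8.58 in 393LN, and 8.44, 10.74, 10.41 and 9.55 in 393P. Its difference was -2.59 ± 0.54 for 344SQ minus 393P (SE; adjusted p = 0.00966), and its other probe set gave -0.53 (adjusted p = 0.127). Inpp5f, a phosphoinositide phosphatase, rose by 0.50 in 344SQ against 393P (adjusted p = 0.0174), a call lost without 344SQ replicate 3 (adjusted p = 0.0541) or 393P replicate 2 (adjusted p = 0.0551). The last of the 6, Ddc, an amine-synthesis enzyme separated from Grb10 by 2 genes and named after its values were seen, rose by 0.83 (adjusted p = 0.0427), a call lost without any 1 of 10 of the 12 arrays, all but 344SQ replicate 4 and 393LN replicate 3 (adjusted p up to 0.114). Peg10, Ndn and Snrpn, which mark other imprinted domains, gave 0.55 (adjusted p = 0.663), 0.53 (adjusted p = 0.147) and -0.28 (adjusted p = 0.681) for 344SQ minus 393P.

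**Figure D5:**
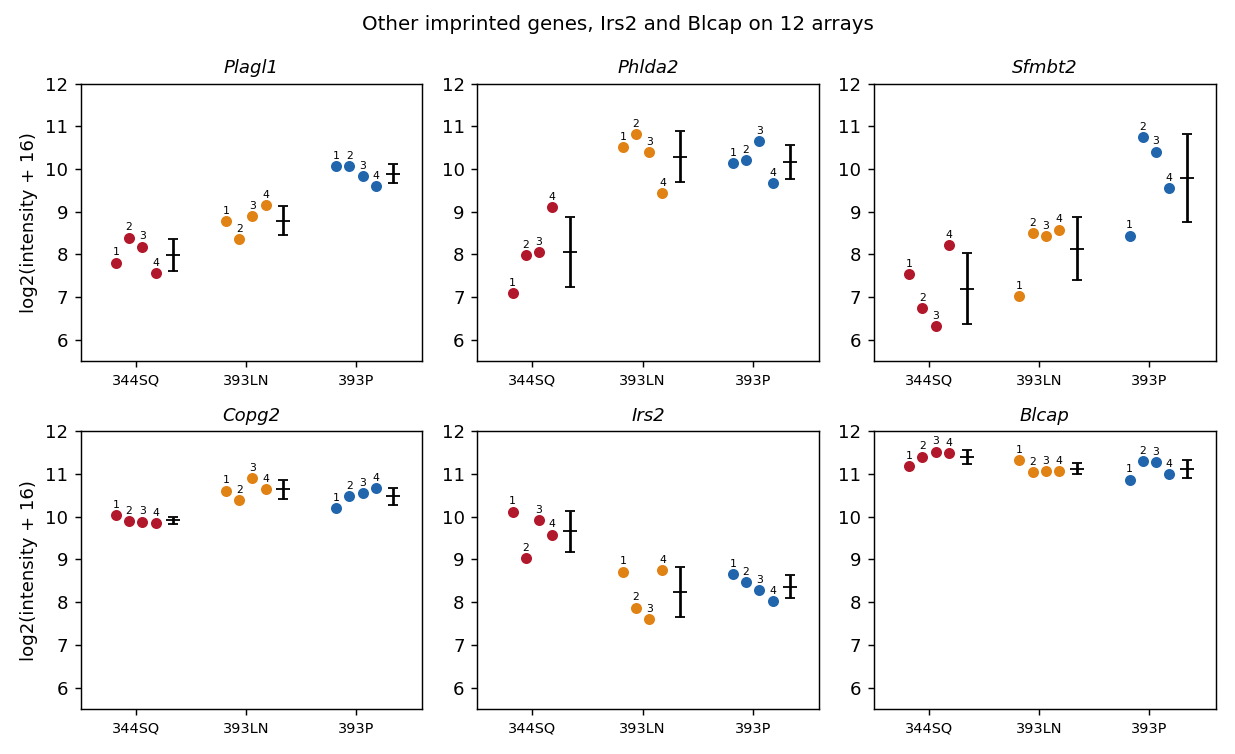
Level, log2(intensity + 16), of the imprinted genes Plagl1, Phlda2, Sfmbt2 and Copg2, of Irs2 and of Blcap on the 4 arrays of 344SQ, 393LN and 393P. Points are arrays, numbered by replicate, and bars are the mean ± SD of a line. Phlda2 and Copg2 lie lower in 344SQ than in both other lines without overlap, Irs2 lies higher, and Blcap overlaps.

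The IGF axis around Igf2, Igf2r and Grb10 held 24 measured genes of 25. In 344SQ against 393P, 1 rose and 3 fell, in 344SQ against 393LN 2 rose and 1 fell, and in 393LN against 393P 0 rose and 1 fell, beside 10.5%, 10.9% and 2.45% of all genes in either direction. The list's medians were 0.07, 0.26 and -0.12, beside -0.0007, -0.0175 and 0.0095 over all genes. Irs2, a docking protein below the insulin and IGF receptors, rose in 344SQ by 1.30 ± 0.29 against 393P (SE; adjusted p = 0.0143) and by 1.43 against 393LN (adjusted p = 0.00934). Without the 3 arrays that stood apart, the difference against 393P was 1.31 with an adjusted p of 0.0503. Grb14, an adaptor of the Grb10 family, fell by 0.46 in 344SQ against 393P (adjusted p = 0.0121) and by 0.56 in 393LN against 393P (adjusted p = 0.0152), the second lost without 393P replicate 3 (adjusted p = 0.0531).

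Grb7, the third adaptor of that family, fell by 0.60 in 344SQ against 393P (adjusted p = 0.0348), a call lost without any 344SQ array or without 393P replicate 2, 3 or 4 (adjusted p up to 0.0939). Grb2, the adaptor that links receptors to Ras, gave -0.45 for 344SQ minus 393LN (adjusted p = 0.0154) and -0.38 for 344SQ minus 393P (adjusted p = 0.0309). The second call was lost without 344SQ replicate 1 or 2 or 393P replicate 2 or 3 (adjusted p up to 0.0906). The other Grb2 probe set gave -0.14 (adjusted p = 0.529) and -0.01 (adjusted p = 0.981) in those comparisons, so the probe sets of Grb2 disagree. Igfbp7, a secreted protein that binds IGFs weakly, rose by 0.53 in 344SQ against 393LN (adjusted p = 0.0190), a call lost without 393LN replicate 3 (adjusted p = 0.0547). Its second probe set was higher in 344SQ than in both other lines without overlap: it read 11.02, 10.65, 10.74 and 10.71 in 344SQ, 9.27, 9.34, 9.45 and 9.44 in 393LN, and 9.61, 9.81, 9.71 and 9.61 in 393P. That probe set gave 1.41 for 344SQ minus 393LN (adjusted p = 1.6e-05) and 1.10 for 344SQ minus 393P (adjusted p = 9.1e-05), and the remaining one gave -0.18 (adjusted p = 0.356) and -0.06 (adjusted p = 0.816), so the probe sets of Igfbp7 disagree. The receptors Igf1r, at 0.37 (adjusted p = 0.229), and Insr, at 0.39 (adjusted p = 0.241), and the ligand Igf1, at 0.30 (adjusted p = 0.634), did not pass for 344SQ minus 393P. Nor did the Igf2 mRNA-binding proteins Igf2bp1, at -0.04 (adjusted p = 0.928), and Igf2bp3, at 0.10 (adjusted p = 0.782). The other 3 Igf2bp1 probe sets gave 1.12 (adjusted p = 0.202), 0.72 (adjusted p = 0.500) and 0.75 (adjusted p = 0.0257) for 344SQ minus 393P, and the last also passed for 344SQ minus 393LN, at 0.74 (adjusted p = 0.0295). For Igf2bp1, as for Igf2r, the result depends on the probe set.

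The imprint and DNA methylation machinery held 28 measured genes of 30. In 344SQ against 393P, 3 rose and 1 fell, in 344SQ against 393LN 3 rose and 2 fell, and in 393LN against 393P none passed limma's test, with 3 at an unadjusted p under 0.05. Over all genes 10.5%, 10.9% and 2.45% passed, and 15.7% had an unadjusted p under 0.05 in 393LN against 393P. Tet2, which oxidises methylated cytosine, rose by 0.82 in 344SQ against 393LN (adjusted p = 0.00552), and its other probe set rose by 1.13 (adjusted p = 0.00558). Rb1, the retinoblastoma protein that holds cells out of division, rose in 344SQ by 0.68 against 393P (adjusted p = 0.00953) and by 0.58 against 393LN (adjusted p = 0.0227), the second lost without 344SQ replicate 2 or 393LN replicate 2 or 4 (adjusted p up to 0.0679).

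Setdb1, a histone methyltransferase at imprints, rose in 344SQ by 0.60 against 393P (adjusted p = 0.0181) and by 0.62 against 393LN (adjusted p = 0.0153), and its other 2 probe sets did not pass. Smchd1, a chromatin protein that silences imprinted clusters, gave -0.50 against 393P (adjusted p = 0.0284) and -0.49 against 393LN (adjusted p = 0.0298). Zfp57, which protects imprints in the embryo, rose by 0.33 against 393P (adjusted p = 0.0453), and Mbd3, named outside the rule to complete the count, fell by 0.63 in 344SQ against 393LN (adjusted p = 0.0446). The calls of Setdb1 were lost without 344SQ replicate 2 in both comparisons (adjusted p = 0.0579 and 0.0511), and against 393P also without 344SQ replicate 3 or 393P replicate 2 or 3. The calls of Smchd1 were lost without 344SQ replicate 1, 2 or 4, without 393P replicate 2 or 3 and without 393LN replicate 1 or 3 (adjusted p up to 0.0850). The call of Zfp57 was lost without any 1 of 9 of the 12 arrays, all but 393LN replicates 1 and 3 and 393P replicate 1 (adjusted p up to 0.127). The maintenance methyltransferase Dnmt1, at -0.09 (adjusted p = 0.768), the insulator protein Ctcf, at 0.31 (adjusted p = 0.193), and Trim28, at -0.07 (adjusted p = 0.736), did not pass for 344SQ minus 393P.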

How the data were processed

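The deposited table holds probe set intensities, which the authors gave on a linear scale from 1 to 21921; the summarising software is not named in the sources used here. Every value (100%) is a power of 2 whose exponent has 2 decimals, within 1e-06. Array medians were 7.19 to 7.29 on the log2 scale, so no normalization was added, and no other columns of values were present (0). The design text names a 430A 2.0 chip, whereas the table holds 45101 probe sets. Symbols came from GEO's platform annotation: 34945 probe sets carry 1 symbol and were used, 932 carry several and 9211 none, and Entrez identifiers changed 0 symbols.

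Levels are log2(intensity + 16), a scale that shrinks folds of dim genes, and dim genes were kept. One linear model, giving each line its mean, was run on all 12 arrays in limma 3.58.1 in R 4.3.3 (lmFit and eBayes). Adjusted p-values are two-sided, with Benjamini-Hochberg adjustment over 18193 genes, or over 34945 probe sets for a gene's further probe sets, and a gene rose or fell at an adjusted p under 0.05. Confidence intervals are 95%. Arrays of one line differed by an SD of 0.329 to 0.571 on the log2 scale and shared at most 3.15% identical values. The number of arrays limits the precision.

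The members, gene lists and rules were chosen with earlier results of these data known. Named were all members, up to 4 genes with the smallest p per list and comparison among those that passed, and 16 genes fixed by name; Igf2bp2 had no value. The scripts were tested on simulated data. Neighbours were counted in RefSeq's gene order, and promoter sequences are RefSeq's (GRCm38.p6). Alternatives were 2 scalings, pseudocounts of 1 and 64, dropping the lowest 25% or 50% by level, the mean of all probe sets, 2 lines only, an intensity trend, array weights and leaving out each array. Leaving out the 3 arrays that stood apart was chosen after seeing the data.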

Additional observations from a re-analysis of the deposited data

Results flagged for a closer look

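Within groups of 4 arrays, 111 were searched for an array far from the other 3 (a gap, relative to the range, above Dixon's critical value), and 6 were found, close to the 1 in 20 that chance gives. None was a member. In 393LN, Sfmbt2 read 7.02 on replicate 1 against 8.43 to 8.58 on the others, Blcap 11.32 on replicate 1 against 11.04 to 11.07, Trim28 12.35 on replicate 4 against 12.28 to 12.29, and Ddc 7.51 on replicate 3 against 6.73 to 6.82. In 344SQ, Peg10, which is derived from a retrotransposon, read 7.30 on replicate 2 against 5.98 to 6.06. In 393P, Igf1r read 9.95 on replicate 4 against 10.24 to 10.29.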

How the results depend on the processing

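The count of genes called was 3320 in 344SQ against 393P and 883 in 393LN against 393P with array weights, in place of 1907 and 446. In 393LN against 393P it was 174 with 2 lines only and 243 without the 3 arrays that stood apart, which was chosen after seeing the data. Leaving out 1 array gave 1259 to 1932 in 344SQ against 393P (lowest without 393P replicate 3), 1167 to 2481 in 344SQ against 393LN (lowest without 344SQ replicate 2, highest without 393P replicate 1) and 156 to 438 in 393LN against 393P (lowest without 393P replicate 3). Scaling moved the split: in 344SQ against 393LN 725 rose and 1259 fell, and 918 and 1002 with quantile normalization; in 393LN against 393P 319 rose and 127 fell, against 234 and 184 with quantile normalization. The causes were not tested.

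Members called stayed at 0 except 1 (Igf2r) in 344SQ against 393P with the mean of all probe sets, and 0 to 1 on leaving out 1 array (Dlk1). With the dimmest 50% left out, 4 of the 8 members were tested. The Nnat difference for 344SQ minus 393P lay between -5.86 and -4.47 over the other settings and between -5.82 and -5.14 on leaving out 1 array. Averaging the probe sets of a gene ended the calls of Ddc, Inpp5f, Rb1, Setdb1, Smchd1, Grb14 and Grb2, and those of Plagl1 that involve 393LN. Leaving out the 3 arrays ended the calls of Ddc, Inpp5f, Zfp57, Grb14 and Igfbp7. It also ended those of Irs2, Grb2 and Setdb1 for 344SQ against 393P, of Smchd1 for 344SQ against 393LN, and of Plagl1 involving 393LN. The calls of Phlda2, Tet2, Sfmbt2, Grb7 and Rb1 held, as did that of Plagl1 for 344SQ against 393P. So did those of Irs2, Grb2, Setdb1 and Copg2 for 344SQ against 393LN and of Smchd1 for 344SQ against 393P. With 2 lines only, the calls of Ddc (adjusted p = 0.0565) and Zfp57 (0.0730) in 344SQ against 393P, of Plagl1 (0.0583), Rb1 (0.0565) and Smchd1 (0.0504) in 344SQ against 393LN and of Grb14 (0.0573) in 393LN against 393P were lost. The call of Zfp57 was also lost with quantile normalization (0.0779), centring (0.0725) and the intensity trend (0.0549), and that of Ddc with a pseudocount of 1 (0.0536). With array weights in limma, Ndn (0.614, adjusted p = 0.0463) and Insr (0.536, adjusted p = 0.0266) passed for 344SQ minus 393P. The following differences, none past the test, changed sign. For 344SQ minus 393LN, Igf2r gave 0.086 with quantile normalization, 0.0153 with centring and 0.0901 with array weights, Meg3 gave 0.0112 with quantile normalization, 0.0805 with the mean of probe sets, 0.0380 with array weights and 0.113 without the 3 arrays, and Dlk1 gave -0.0987 without the 3 arrays. For 393LN minus 393P, Mest gave -0.0603 with quantile normalization and -0.0026 with centring, and Grb10 0.0028 with array weights. For 344SQ minus 393P, the mean of probe sets gave 0.639 for Igf2bp1 and -0.0640 for Igf2bp3. Leaving out 1 array gave -0.413 to 0.109 for Cdkn1c and -0.129 to 0.111 for Igf2bp1 in 344SQ minus 393P, -0.0865 to 0.698 for Dlk1, -0.240 to 0.0170 for Igf2, -0.125 to 0.194 for Igf2r and -0.311 to 0.298 for Meg3 in 344SQ minus 393LN, and -0.177 to 0.0483 for Grb10, -0.0545 to 0.111 for Mest and -0.231 to 0.142 for Peg3 in 393LN minus 393P.

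No paired analysis was possible because the labels give no animal, batch or pairing of the arrays. Host and tumour RNA were not separated, and signal near the floor limits what dim probe sets show.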
